A study of Rattus norvegicus with 30 samples.

Results

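A segment of rat chromosome 14 that carries the gene LOC257642 and the predicted gene AABR06078903.1 was described by whole genome bisulfite sequencing of the medial prefrontal cortex (mPFC). Its members were chosen by position, as every cytosine with deposited values from chr14:46690000-46850000 of the rn5 build, a stretch of 160 kb. These were 842 of the 85484 CpG sites valued for the comparison of ages (0.985%), with 951 CHG and 2407 CHH sites, where H is any base but G. The values for aged impaired and aged unimpaired rats held 756 CpG, 822 CHG and 2098 CHH sites. Both sets together gave 880 CpG positions, and the 718 CpG positions in both sets carried the same ratio in every aged rat in both (tolerance 1e-06).

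The 30 animals were male Fischer 344 rats, 10 young rats of 5 to 6 months and 20 aged rats of 17 to 22 months, with the prelimbic and infralimbic cortex taken from each as bulk tissue. Of the aged rats, 9 were impaired (AI) and 11 unimpaired (AU) on an attentional set shifting task, split by the mean of their trials to criterion. Each rat gave 1 library, and the labels name no transgene or drug for any group. The rat identifiers fall into 3 number series, here called A (3 young, 5 AI and 6 AU rats), B (3 young, 4 AI and 4 AU) and C (4 young and 1 AU). The labels do not say what a number series stands for.

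Bisulfite converts unmethylated cytosine so that it reads as thymine, while methylated cytosine still reads as cytosine. The methylation ratio of a site is the share of its reads that kept the cytosine, from 0 to 1. An intermediate ratio means that methylated and unmethylated molecules were both present, as they are when cells, alleles or copies of a repeated sequence differ. In most mammalian tissue CpGs are highly methylated where they are sparse and little methylated where they are dense. Neurons also carry some methylation outside CpG. LOC257642 is described in gene catalogues as an rRNA promoter binding protein, and the function of AABR06078903.1 is not given in the sources used here.

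The reads behind each ratio were not used here, and the count of valued CpGs stands in for depth. It ranged from 343 to 787 of the 842 segment CpGs per rat. Aged rats of series A had a value at a median of 647 CpGs (561 to 724) and aged rats of series B at a median of 503 (371 to 681). The median segment CpG was valued in 23 of the 30 rats, against 16 for all other CpGs, and 24.5% of segment CpGs (206) were valued in every rat. No pair of rats held identical values, as the correlation of segment CpG ratios between rats lay between 0.623 and 0.873 over 435 pairs.

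The CpGs stood in short dense runs. A run is here at least 5 CpG positions with gaps under 1000 bp, and 22 runs covering 21266 bp in all held 862 of the 880 positions. Among 9037 windows of the same length with at least 1 CpG, the segment held the second most CpGs, with a median of 4 per window elsewhere. The chromosome 14 CpGs of LOC257642 named by the study all fell in the first run, chr14:46701149-46702894, which held 94 positions, a small share of the 880. The AABR06078903.1 CpGs fell in run 20, chr14:46833708-46837555, with 103 positions. The most populated runs carried no gene name in the sources used here. They were run 18, chr14:46821318-46822996, with 152 positions, and run 19, chr14:46826690-46827754, with 153 positions at 14.4 per 100 bp.

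Methylation across the segment was intermediate. The mean ratio of the segment CpGs was 0.516 over all rats, against 0.711 for all other CpGs. Of the segment CpGs, 73.8% had a mean ratio from 0.2 to 0.8, against 46.8% of the others, and 17.1% were above 0.8, against 46.4%. Both strands of a CpG are read separately. Here 184 pairs of neighbouring positions were taken as the strands of 1 CpG, which was not checked against the genome sequence. Their mean ratios differed by a median of 0.0904, and by over 0.1 at 86 pairs (Pearson r = 0.797, a description over pairs within the same libraries).

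The level varied widely from run to run. Run 6, chr14:46757032-46757276, was lowest with a mean ratio of 0.208 over its 12 positions, followed by run 19 at 0.329 and run 18 at 0.379. The LOC257642 run stood at 0.483 and the AABR06078903.1 run at 0.557. The runs in the middle of the segment, 7 to 14, lay between 0.695 and 0.912, and the last run, at the end of the segment, had 0.910. Runs denser in valued positions were less methylated, with Pearson r = -0.612 and Spearman rho = -0.545 over 22 runs. These runs share their libraries, so that the values are a description. The density counts only positions with values, so it depends on coverage as well as on sequence. Run 6 lay below this trend, with few positions and the lowest ratio.

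**Figure D1:**
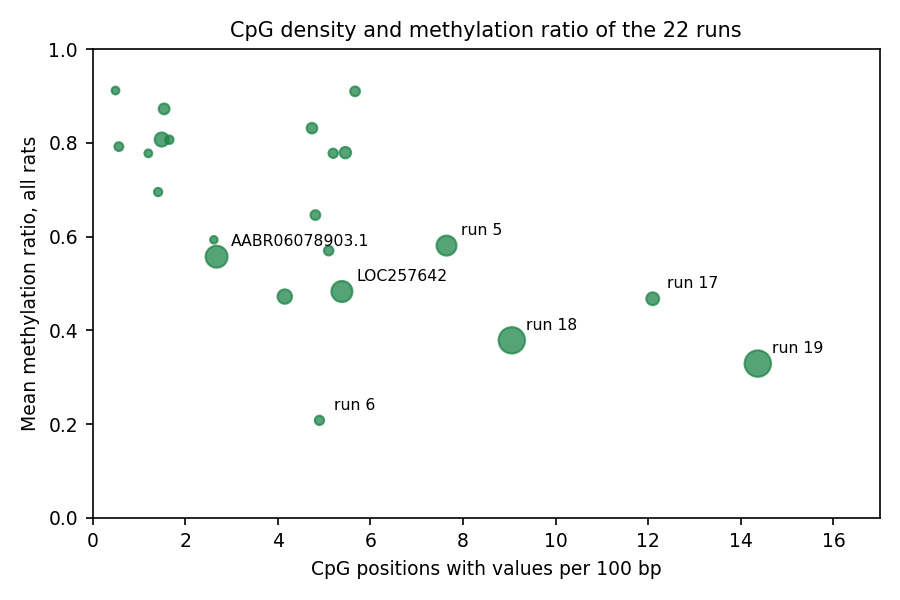
Mean methylation ratio of each of the 22 runs (vertical axis, mean over CpGs and all 30 rats) against CpG positions with values per 100 bp (horizontal axis). Each point is a run, with its area growing with the number of CpGs. The densest, run 19 at 14.4 positions per 100 bp, has a ratio of 0.329, while the runs with under 2 positions per 100 bp have ratios of 0.695 or higher.

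Single sites spanned nearly the whole scale within short distances. Among CpGs valued in all 30 rats, the lowest were 46827639, 46826952 and 46827633, all in run 19, with mean ratios of 0.0621, 0.115 and 0.120. The highest were 46790277 and 46790285 in run 13, with 0.968 and 0.942, and 46848090 in the last run, with 0.962. At these high CpGs aged and young rats were nearly equal, with 0.963 ± 0.0411 (SD, n = 20) in aged and 0.978 ± 0.0347 (n = 10) in young rats at 46790277.

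Aged rats had a lower mean methylation of the segment than young rats. The segment was chosen with this contrast known, so its values and counts are a description from which nothing is read. The segment mean of a rat is the mean over its valued CpGs. In young rats it ran from 0.527 to 0.587 with a median of 0.545, and in aged rats from 0.444 to 0.578 with a median of 0.486. Of the 20 aged rats, 14 were below every young rat and the others overlapped with the young range. The means were 0.500 ± 0.0413 (SD, n = 20) in aged and 0.547 ± 0.0189 (n = 10) in young rats, a difference of -0.0473. Of the 842 CpGs, 650 had the lower mean in aged rats. The per-site test, 2-sided, at an unadjusted p under 0.05 called 160 of them, 150 lower in aged rats, where 6.13% of all CpGs were called and 3.72% were called lower. With all rats none of the 842 passed Benjamini-Hochberg adjustment over all CpGs. Among CpGs with at least 5 rats per group, 143 of 653 were called (21.9%, against 6.58% of all such CpGs) and 1 passed adjustment. For the 842, limma called 160 unadjusted where 6.64% of all CpGs were called. It gave 0 adjusted calls too (1 with the number series as a covariate). Without series A the per-site count was 29 of 602 (4.82%, against 4.58% of all CpGs), without series B it was 258 of 751 (34.4%, against 6.62%), of which 22 passed adjustment, and without series C, which holds 1 aged and 4 young rats, it was 78 of 747 (10.4%, against 6.39%). In bulk tissue another mix of cells and another methylation within cells cannot be told apart.

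The aged rats fell into separate ranges by number series. The 11 aged rats of series A had segment means from 0.444 to 0.488 with a median of 0.470. The 8 aged rats of series B ran from 0.504 to 0.578 with a median of 0.547, and the single aged rat of series C had 0.479. All 11 aged rats of series A lay below every aged rat of series B and below every young rat, whereas 6 of the 8 aged rats of series B lay within the young range and 2 below it. The means were 0.470 ± 0.0161 (n = 11) and 0.544 ± 0.0241 (n = 8), a difference of -0.0740. Over all CpGs outside the segment the same rats had 0.700 ± 0.00265 and 0.702 ± 0.00392, a difference of -0.00124.

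**Figure D2:**
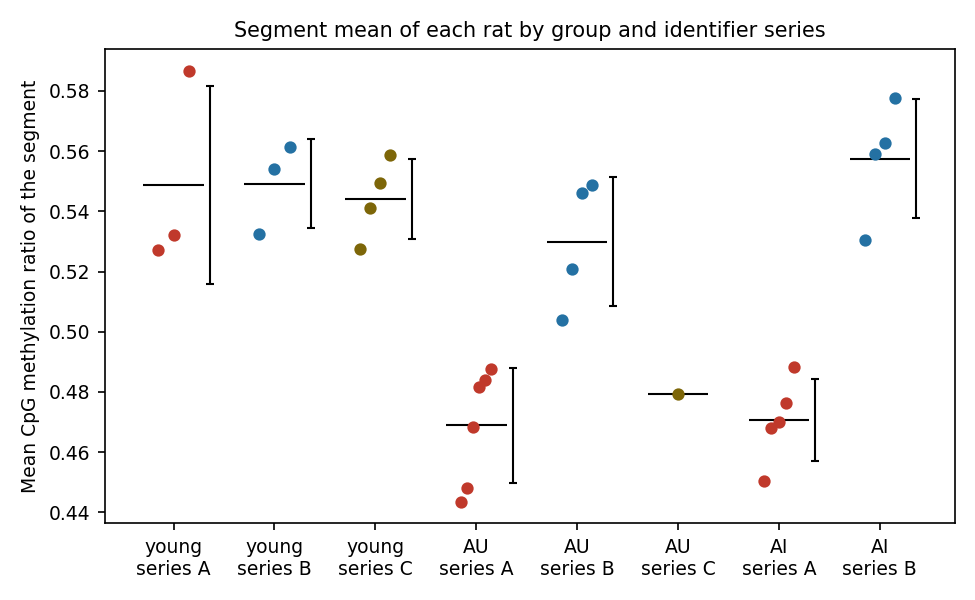
Mean CpG methylation ratio of the segment in each rat (vertical axis), by group and number series (horizontal axis). Points are rats, horizontal lines group means and vertical bars the SD; the axis does not start at 0. Aged rats of series A, AU and AI alike, lie at or below 0.488, and the young rats of every series at or above 0.527.

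Young rats did not divide this way in the segment mean, which rests on different CpGs from rat to rat. The 3 young rats of series A had 0.527, 0.532 and 0.587, the 3 of series B 0.533, 0.554 and 0.561, and the 4 of series C 0.527, 0.541, 0.549 and 0.559. All 3 series overlapped. The aged minus young difference was -0.0790 in series A, with 11 aged and 3 young rats, but -0.00557 in series B, with 8 and 3. Over the 206 CpGs valued in every rat, where every rat contributes the same sites, young rats of series A were also lower. Young rats of series A then had 0.478 ± 0.0151 and those of series B 0.544 ± 0.00744 (n = 3 each), while aged rats had 0.404 in series A and 0.515 in series B. On these sites the aged minus young difference was -0.0737 in series A and -0.0285 in series B.

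The lower values of series A were seen in impaired and unimpaired rats. Among AI rats the segment mean was 0.471 ± 0.0137 in series A (n = 5) and 0.557 ± 0.0198 in series B (n = 4), a difference of -0.0868. Among AU rats it was 0.469 ± 0.0191 (n = 6) and 0.530 ± 0.0215 (n = 4), a difference of -0.0610. In neither group did the series overlap.

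At single CpGs, 573 had values in at least 3 aged rats of each series. The same test called 227 of them (39.6%), 222 lower in series A, against 8.84% of all CpGs called and 5.84% called lower. After Benjamini-Hochberg adjustment over all 42276 CpGs tested, 59 segment CpGs remained of 359 in all. The segment was chosen with the age contrast of these aged rats known, so these counts are a description. limma called 253 (44.2%, against 10.4% of all CpGs), of which 94 passed adjustment. The median difference was -0.107 over the segment CpGs and -0.000571 over all CpGs tested. Series A also had more valued CpGs per rat than series B, as given above. Over the 206 CpGs valued in every rat the difference of means was -0.112, larger than over all valued CpGs.

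The difference between series was present at every level and widest in the CpGs of intermediate level. Under a mean ratio of 0.2, 11 of 47 CpGs tested were called (23.4%, against 13.3% of other CpGs of that level), 45 had the lower mean in series A, and the median difference was -0.0649. Of those from 0.2 to 0.8, 205 of 439 tested were called (46.7%, against 9.31% of other CpGs of that level), and the median difference was -0.130. Above 0.8, 11 of 87 were called (12.6%, against 6.67%), with a median difference of -0.0224. Run by run, aged rats of series A had the lower mean in 15 of the 21 runs with values in both series. The difference moved with the level of the run (r = 0.808, rho = 0.826 over 21 runs, a description), and most runs above 0.7 differed by less than 0.05 in either direction. Run 9 was apart among these, at -0.0965. Its values rest on 14 to 19 CpGs per rat in series A and 5 to 12 in series B, so that they cover different sites. Of 5 CpGs tested there between series 0 were called, against 8.84% of all CpGs. Of the runs with the higher mean in series A, run 13, chr14:46790274-46791504, had the widest difference, as series A had 0.901 ± 0.0312 (n = 11) and series B 0.834 ± 0.0294 (n = 8).

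**Figure D3:**
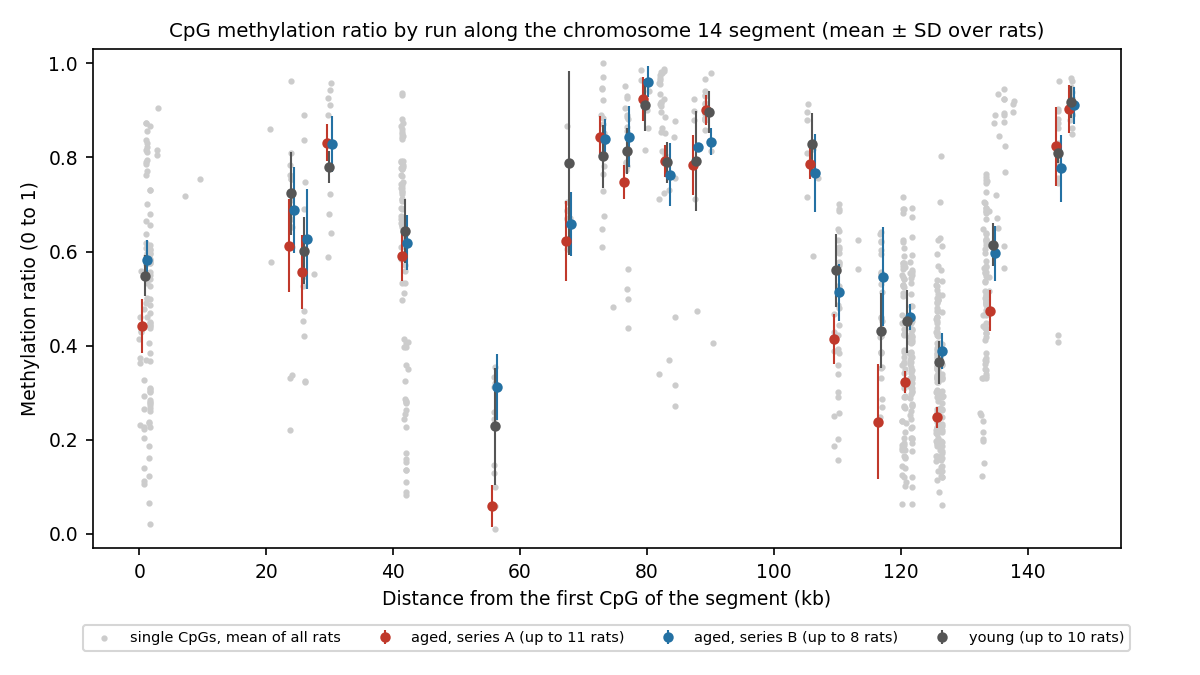
Methylation ratio (vertical axis) along the segment, in kb from its first CpG (horizontal axis). Grey points are single CpGs averaged over all rats, and coloured points with bars are run means ± SD over rats, moved sideways slightly so that they can be told apart. Aged rats of series A are lowest in the runs below a ratio of about 0.6 near 0, 56 and 110 to 135 kb, while in the highly methylated middle the order of the groups varies from run to run.

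The densest run held the most CpGs called between series. In run 19 the 11 aged rats of series A ran from 0.207 to 0.270 (median 0.255), the 8 of series B from 0.342 to 0.445 (median 0.377) and the 10 young rats from 0.279 to 0.423 (median 0.366). Every aged rat of series A was below every aged rat of series B and every young rat. The means were 0.248 ± 0.0220, 0.389 ± 0.0378 and 0.364 ± 0.0459. Of 130 CpGs tested in this run, 90 were called lower in series A, where 5.84% of all CpGs were called lower. Of these, 40 passed adjustment over all CpGs, so that this run alone held most of the segment's 59. Young rats of series A were also the lower ones here, with a mean of 0.308 against 0.399 in young rats of series B (n = 3 each).

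Run 18, some 4 kb before it, had the same order of groups. Aged rats of series A had 0.283 to 0.353 (median 0.324), those of series B 0.435 to 0.515 (median 0.456) and young rats 0.372 to 0.558 (median 0.426). The aged rats of series A again overlapped with neither group. Between series, 54 of 103 CpGs tested were called, all lower in series A, where 5.84% of all CpGs were called lower. Of these, 11 passed adjustment. Here too young rats of series A were lower, with a mean of 0.395 against 0.487 in series B (n = 3 each). The AU rat of series C had 0.349 in run 18 and 0.236 in run 19, within the range of series A in both.

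The least methylated run was nearly bare of methylation in series A. In run 6, the 7 aged rats of series A with at least 3 valued CpGs ran from 0 to 0.109 (median 0.0667), while the 8 of series B ran from 0.197 to 0.372 (median 0.355). These rest on 3 to 12 CpGs per rat in series A and 6 to 10 in series B. The 8 young rats with values covered both ranges, from 0.0750 to 0.424, with means of 0.104 in series A and 0.275 in series B (n = 2 each). Only 5 of its CpGs had values in enough aged rats of both series for a per-site test. Of these, 3 were called, where 8.84% of all CpGs were called. In run 17, chr14:46817915-46818162, the 3 aged rats of series A with values had at most 0.333 with a median of 0.283, and the 7 of series B ran from 0.382 to 0.631. The series A values rest on 3 or 4 CpGs per rat and those of series B on 10 to 30, so that they cover different sites, and 0 CpGs of the run could be tested between series. The single young rat of series A with values had 0.286 there, and the 3 of series B a mean of 0.436.

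The LOC257642 run gave the values by which the segment is named. Aged rats of series A ran from 0.360 to 0.541 (median 0.437), those of series B from 0.535 to 0.667 (median 0.571) and young rats from 0.484 to 0.640 (median 0.543). The series touched at their ends, with 10 of 11 rats of series A below every rat of series B, and the young rats overlapped with both. The means were 0.442 ± 0.0578, 0.582 ± 0.0425 and 0.549 ± 0.0440. The aged minus young difference was -0.111 within series A and 0.0129 within series B. Of 69 CpGs tested between series, 30 were called, all lower in series A, where 5.84% of all CpGs were called lower. Of these, 2 passed adjustment.

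The AABR06078903.1 run had aged rats of series A from 0.392 to 0.523 (median 0.489), of series B from 0.497 to 0.668 (median 0.608) and young rats from 0.545 to 0.685 (median 0.612). Series A lay wholly below the young rats and overlapped with series B in part. The age difference was -0.130 within series A and -0.0477 within series B. Between series, 25 of 74 CpGs tested were called, all lower in series A, where 5.84% of all CpGs were called lower. Of these, 4 passed adjustment.

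**Figure D4:**
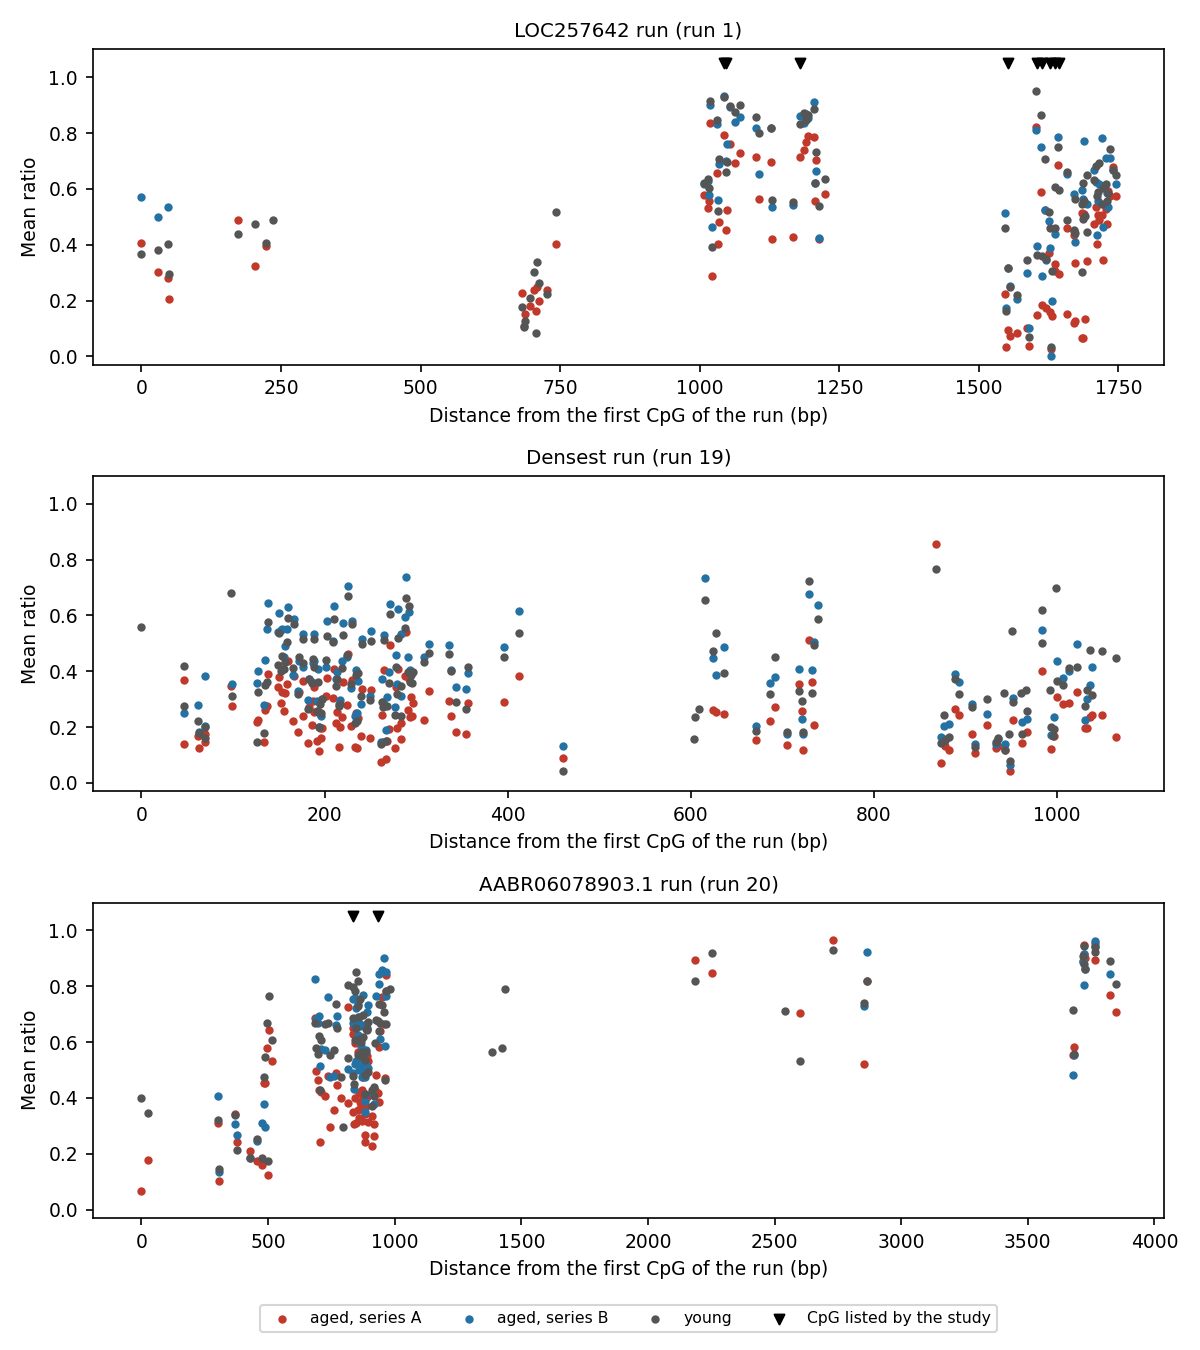
Mean methylation ratio of each CpG (vertical axis) against its distance in bp from the first CpG of its run (horizontal axis) in the LOC257642 run, the densest run and the AABR06078903.1 run. Points are means over at least 3 rats of aged series A, aged series B or young, and triangles mark CpGs listed by the study. In the densest run most series A points lie under the blue and grey points at the same position.

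The study lists 11 CpGs of the segment whose methylation differed with age and was positively correlated with RNA level. Of these, 9 were in an intron of LOC257642 and 2 in an intron of AABR06078903.1. All 11 had lower means in aged than in young rats, by which they had been chosen, with differences from -0.0585 to -0.251. Within series A the aged mean was lower at all 11, and within series B at 7 of the 10 with values. All 11 were lower in aged rats of series A than of series B. Of the 9 that could be tested between series, 6 were called, where 8.84% of all CpGs were called. The CpGs 46702328 and 46702753 passed adjustment over all CpGs.

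The LOC257642 CpGs lay in groups of unlike level. At 46702328 aged rats of series A ran from 0.611 to 0.860 (median 0.714), of series B from 0.792 to 0.909 (median 0.868) and young rats from 0.739 to 0.905 (median 0.846). At 46702753, farther along the run, the levels were lower, from 0 to 0.273 in series A (median 0.174) and from 0.250 to 0.500 in series B (median 0.407), and young rats covered 0.0714 to 0.550. The ranges of the aged series overlapped at both sites, at 46702753 only between 0.250 and 0.273. The largest listed age differences were at 46702785, with 0.356 ± 0.193 (n = 17) in aged and 0.608 ± 0.231 (n = 9) in young rats, and at 46702776, with 0.218 ± 0.178 (n = 15) and 0.460 ± 0.239 (n = 8). At these 2 sites aged rats were lower within series B as well, by differences of -0.372 (3 young rats) and -0.327 (2 young rats), and the series difference did not pass the test. The neighbours 46702762 and 46702701 had -0.142 and -0.124 between ages, and 46702792, valued in 14 rats, had -0.228. The pair 46702193 and 46702196, 3 bases apart, had mean ratios of 0.873 and 0.578 over all rats.

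In AABR06078903.1, 46834543 had 0.639 ± 0.150 (n = 14) in aged and 0.796 ± 0.113 (n = 6) in young rats, and 46834644 had 0.494 ± 0.160 (n = 9) and 0.676 ± 0.124 (n = 6). These were valued in 20 and 15 of the 30 rats. The CpGs with the widest gap between aged rats of series A and B among those valued in at least 15 aged rats lay in run 18 (46822931 and 46822941), run 19 (46826974) and the AABR06078903.1 run (46834583 and 46834633). At 46834583 series A ran from 0.312 to 0.652 (median 0.464, n = 11) and series B from 0.625 to 0.875 (median 0.782, n = 6), so that the ranges touched only at their ends. At 46822931 the means were 0.421 ± 0.171 (n = 10) and 0.875 ± 0.160 (n = 4). Of these 5 CpGs, 46834583 and 46834633 passed adjustment over all CpGs.

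Impaired and unimpaired rats were compared to ask whether methylation of the segment went with executive function in old age. These values come from the set of calls made for AI and AU rats, so the segment means of the aged rats are not those given above. The segment mean of AI rats ran from 0.456 to 0.573 (median 0.497) and that of AU rats from 0.450 to 0.560 (median 0.487), and 7 of 9 AI rats lay within the AU range. The means were 0.512 ± 0.0444 (n = 9) and 0.498 ± 0.0349 (n = 11), a difference of 0.0146 that is smaller than the SD of either group. The difference was 0.00263 in series A (5 AI and 6 AU rats) and 0.0210 in series B (4 and 4). Per site, 27 of 756 CpGs were called (3.57%), 18 higher and 9 lower in AI rats, against 4.1% of all CpGs called and 2.01% called lower, and 0 passed adjustment. limma called 34 (4.5%, against 5.51% of all CpGs) and likewise 0 after adjustment. With the number series as a covariate limma called 54 (7.14%, against 5.82%), again with 0 after adjustment.

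Run by run, AI rats were close to AU rats. The LOC257642 run had 0.515 ± 0.0900 in AI and 0.498 ± 0.0724 in AU rats, the AABR06078903.1 run 0.533 ± 0.0865 and 0.520 ± 0.0739, and run 19 had 0.317 ± 0.0813 and 0.293 ± 0.0732 (n = 9 and 11 each). Run 17 was apart, with 0.719 ± 0.0991 (n = 4) in AI and 0.423 ± 0.155 (n = 3) in AU rats. All 4 of its AI rats were of series B, and of its AU rats 1 was of series A and 2 of series B, so that the groups differed in series there. The value also rested on only 4 CpGs. In the calls for aged and young rats, with 10 to 30 CpGs per rat, AI rats of series B had 0.617, 0.621, 0.626 and 0.631. AU rats of series B with values had 0.382, 0.422 and 0.528. Run 17 is shown for its gap, so these values are a description.

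**Figure D5:**
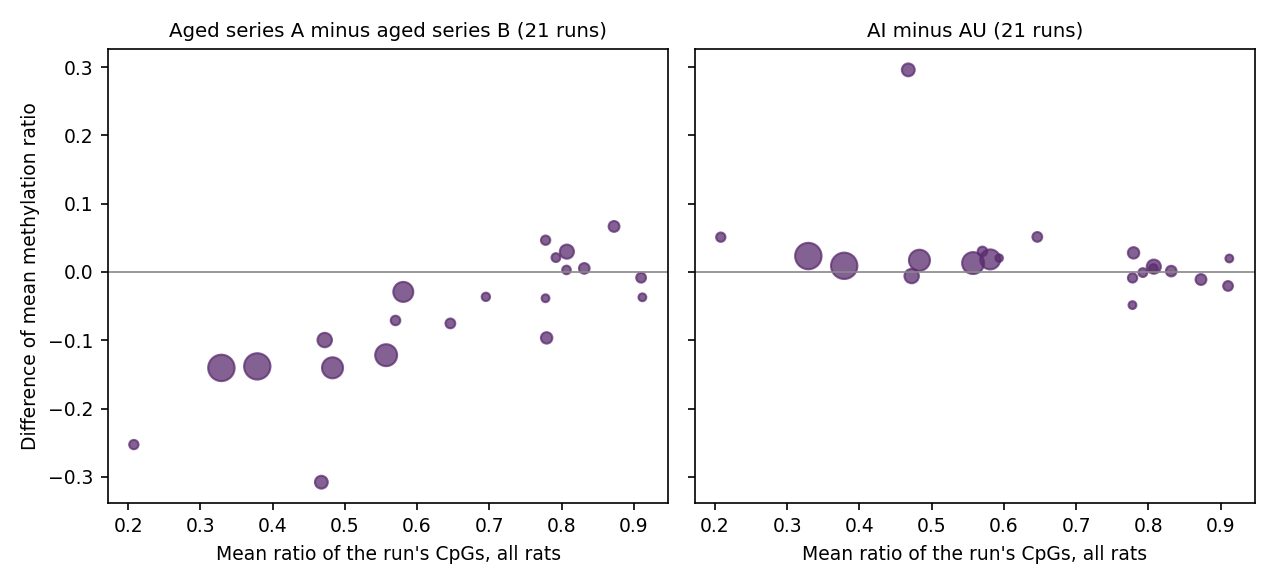
Difference of mean methylation ratio (vertical axis) against the mean ratio of the run (horizontal axis), for aged series A minus aged series B (left) and AI minus AU (right). Each point is a run, with its area growing with the number of CpGs. On the left the runs under 0.5 lie at -0.0997 or lower, and on the right all runs but run 17, at 0.296, lie within about 0.05 of 0.

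The 5 CpGs with the widest gap between AI and AU rats among those called were 46818085 and 46818081 in run 17, 46743249 in run 5, 46701852 in the LOC257642 run and 46814473 in run 16. All 5 were higher in AI rats, by 0.372, 0.281, 0.353, 0.320 and 0.278, and each had values in only 7 to 11 of the 20 aged rats. At 46701852 the 4 AI rats ran from 0.231 to 0.600 (median 0.473) and the 4 AU rats from 0 to 0.222 (median 0.138), without overlap. Without series B, which left 3 AI and 4 AU rats, the difference there was 0.268 and was no longer called. At 46814473 it was 0.310 without series B, and that call was lost as well. At 46743249 all 3 AU rats were of series A, and within series A, with 2 AI rats, the difference was 0.217. In run 17 all 4 AI rats were of series B, and within series B the difference was 0.155 at 46818081 (2 AU rats) and 0.424 at 46818085 (1 AU rat). None of the 5 passed adjustment over all CpGs, with an adjusted p of 1 for each.

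Methylation outside CpG was low at most sites, with 27 of 951 CHG and 19 of 2407 CHH sites over a mean ratio of 0.1. The mean ratio in the segment was 0.0186 over CHG sites and 0.0103 over CHH sites, against 0.0227 and 0.0171 at all other sites. In AI and AU rats the CHG means were 0.0160 ± 0.00135 (n = 9) and 0.0174 ± 0.00266 (n = 11), and the CHH means 0.00916 ± 0.000941 and 0.00851 ± 0.000747, with overlapping ranges. Without the CHG site 46702754 the AI minus AU difference of CHG means turned from -0.00135 to 0.000117. That of CHH means was 0.000650, and 0.000347 without the CHH sites whose ratio changed with the set of calls, and over all CHH sites it was 0.00139 within series A and -0.000246 within series B. Among sites with a mean ratio over 0.1 in either group, 0 of 26 CHG sites were called between AI and AU rats, against 6.23% of all such sites, and 3 of 22 CHH sites, against 6.1%. With limma 1 of 27 CHG sites (3.70%, against 8.91% of all such sites) and 3 of 24 CHH sites (12.5%, against 8.38%) were called, and all 4 passed adjustment. All 4 were among the sites, described next, whose ratio changed with the set of calls.

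The site with the highest CHG ratio changed its value with the set of calls. At 46702754, the base after the listed CpG 46702753, all 16 aged rats with a value had a ratio of 1 in the calls for aged and young rats, and the 10 young rats had 0 to 0.125. In the calls for AI and AU rats, the same site had 0 in all 9 AI rats and 1 in all 9 AU rats with values, so that the 7 AI rats with values in both had 1 in one set and 0 in the other. Of 781 CHG sites in both sets, this was the only one with another ratio, and of 1998 CHH sites there were 4, at 46773968, 46780876, 46783265 and 46788812. The CHH site 46783265, with 0 to 0.0417 in 7 AI and 0.833 to 1 in 3 AU rats, was 1 of the 3 CHH sites called. The cause of these changes was not tested.

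Among the other non-CpG sites valued in at least 15 rats, the highest were CHG sites 46811307 and 46827559, with 0.202 and 0.201, and CHH sites 46774363, 46826799 and 46835926, with 0.465, 0.164 and 0.159. The CHH site 46774363 lay outside the runs and ran from 0 to 0.714 over 16 rats, with 0.444 ± 0.208 (n = 11) in aged and 0.510 ± 0.205 (n = 5) in young rats. At 46811307, valued in all rats, aged rats had 0.198 ± 0.0887 and young rats 0.209 ± 0.114.

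The loci that share a name or a pattern with the segment were set beside it. A run on chromosome 6, chr6:39259674-39261366, also carries the name LOC257642 and has 18 CpGs. It was highly methylated, with 0.839 ± 0.0300 in aged rats of series A, 0.810 ± 0.0475 in series B and 0.816 ± 0.0478 in young rats, so series A was not the lowest there. The 5S_rRNA run on chromosome 19, chr19:67047901-67048792, with 101 CpGs, had 0.0685 ± 0.0214 in aged rats of series A, 0.440 ± 0.0478 in series B and 0.456 ± 0.0300 in young rats. Correlations of run means between loci were taken within aged rats of series A, within aged rats of series B and over all 10 young rats, whose 3 series were pooled. None of the 18 passed adjustment (permutation, Benjamini-Hochberg). At an unadjusted p under 0.05 there was 1, between the LOC257642 runs of chromosomes 14 and 6 in young rats (Pearson r = -0.667, n = 10), and it turned to 0.299 without the 2 rats farthest from the median.

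The bounds of the segment were set by the rule. In the 20 kb before its start there were 5 CpGs, the nearest 10253 bp away, with a mean ratio of 0.821. In the 20 kb past its end there were 34 CpGs, the nearest 4170 bp away, and these had 0.261 in aged rats of series A, 0.418 in series B and 0.342 in young rats. The gap between series therefore went on past the upper bound.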

How the data were processed

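Genomic DNA of the mPFC of 30 rats was bisulfite converted and sequenced by the authors, 1 library per rat. As the study's methods and processing notes state, they trimmed reads with Trimmomatic, checked them with FastQC, dropped reads with unconverted cytosines, aligned to rn5 with BSMAP and called methylation with cscall, with versions not given in the sources used here. Dropping such reads lowers true non-CpG methylation too. The deposited values are methylation ratios, a fraction from 0 to 1 per rat and site, missing under 5 reads, for sites valued in 3 or more rats of each group. Read depth was not used here, so no interval, count model or other coverage minimum could be used. All 150 value columns were assigned to a rat. No rn5 genome was used, and no sequence is shown.

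From these, ratios were compared per site by a Welch test, 2-sided, over all CpGs with at least 3 rats per group (non-CpG sites with a mean over 0.1 in either group), with Benjamini-Hochberg adjustment over all sites. With groups under 10 rats this test is approximate, and counts from limma 3.58.1 (R 4.3.3) are given beside it. The scripts were tested on simulated ratios. Run and segment means were taken over the valued sites of a rat, at least 3 in a run. Being scores over members chosen with results known, their differences between groups carry no p-value. Members, runs and lists were chosen with earlier results of these data known, so no pattern here is independent support. Named sites are all CpGs of the segment that the study lists; the 5 with the largest AI minus AU difference among those called; the 5 with the largest difference between aged rats of series A and B among those valued in at least 15 aged rats; the 3 highest and 3 lowest CpGs valued in every rat; and the 3 CHG and 3 CHH sites with the highest mean valued in at least 15 rats. Alternatives were limma with and without the number series as a covariate or on logit ratios (offset 0.05), at least 5 rats per group, leaving out each number series, sites shared by both sets of calls, other averages over sites, and other non-CpG filters; comparisons within AI and within AU rats, and non-CpG results without sites whose ratio changed between sets of calls, were added after seeing the data.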

Additional observations from a re-analysis of the deposited data

Results flagged for a closer look

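The aged minus young difference of the segment mean is given by number series as a description, since the segment was chosen with this contrast known. It was -0.0790 in series A and -0.00557 in series B, and the difference between these was -0.0735. Over the 206 CpGs valued in every rat it was -0.0452, since young rats of series A were then lower too. As a mean deviation from the site means it was -0.0650, as a median over sites -0.117, and with neighbouring positions averaged to 1 value -0.0726. Series and valued sites cannot be told apart fully, as series A and B each had 3 young rats and series B had fewer valued CpGs.

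One value stood apart from its group. In the calls for AI and AU rats, AI replicate 9 had a segment CHG mean of 0.0192, with the nearest AI rat at 0.0165. In the calls for aged and young rats the same rat had 0.0186, with AI replicate 8 at 0.0187, and did not stand apart. The value of 0.0192 was the only one in 11 groups checked for a rat far from the others. A gap past the limit used arises by chance in about 1 in 20 groups.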

How the results depend on the processing

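The difference between aged rats of series A and B kept its sign under every alternative run, between -0.121 and -0.0610, and the AI minus AU difference of CpG means kept its sign in the 7 run, between 0.00263 and 0.0250. The age difference within series B was -0.00557. The difference in age effect between series, over CpGs valued in every rat, was -0.0452, against -0.0735 over all valued CpGs. The other averages over sites gave values from -0.117 to -0.0650. Segment CpGs called between ages numbered 29 of 602 without series A, 258 of 751 without series B (22 after adjustment) and 78 of 747 without series C, where 4.58%, 6.62% and 6.39% of all CpGs were called; fewer rats entered each. Those called between AI and AU rats numbered 54 in limma with series as a covariate (7.14%, against 5.82% of all CpGs). Called CHG sites numbered 8 of 821 with no ratio filter (0.974%, against 0.811% of all CHG sites) and 1 of 27 in limma (against 8.91%). Called CHH sites numbered 10 of 2096 with no filter (0.477%, against 0.525%) and 1 of 4 over a ratio of 0.2 (against 8.58%). The AI minus AU CHG mean turned to 0.000150 in the calls for aged and young rats and to 0.000117 without the site whose ratio changed between sets of calls. The CHH mean was 0.00139 within series A and -0.000246 within series B. The cause of these changes was not tested. No paired analysis was possible because the labels number no replicates across groups. At 5 reads a ratio moves in steps of 0.2, which limits single sites; with few rats per series, a CpG that missed the threshold may still differ.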
